A study of Mus musculus with 18 samples.

Results

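Smooth muscle contractile genes were followed through RNA sequencing of heart cells isolated from Bag3-P209L Tg+ and Bag3-WT mice. The set was 10 genes chosen by name, Acta2, Actg2, Myh11, Tagln, Cnn1, Myl9, Smtn, Lmod1, Rgs5 and Pdgfrb, out of 19094 protein-coding genes in the deposited table, and all 10 were found there. Cardiomyocyte and cardiac fibroblast preparations came from the same 6 mice aged 16 months, 3 Tg+ and 3 Bag3-WT. Per mouse there were 2 cardiomyocyte libraries (rep1 and rep2), whose estimated counts were summed, and 1 of fibroblasts, so the 18 libraries became 12 columns, 1 per mouse and preparation. Tg+ animals carry a Bag3 transgene with leucine in place of proline (P209L), while the sources used here do not give its promoter, its species of origin or the strain. The animal codes hold the letter F for Tg+ mice 1 and 3 and Bag3-WT mouse 1, and the letter M for the other 3 mice. Tg+ mouse 1 and Bag3-WT mouse 1 share the first part of that code, whose meaning the sources used here do not give, and no other mice share it.

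Smooth muscle cells of the vessel wall contract when a kinase phosphorylates the light chain of smooth muscle myosin, which then pulls on filaments of smooth muscle actin. Calponin, transgelin, smoothelin and leiomodin bind or build these actin filaments. Serum response factor and its partner myocardin switch on many of these genes through a DNA element called the CArG box. Pericytes, the cells wrapped around capillaries, are marked by the platelet-derived growth factor receptor beta and by Rgs5, a brake on G protein signalling. Activated fibroblasts, or myofibroblasts, also make smooth muscle actin, and young or stressed cardiomyocytes can do so too, so Acta2 alone does not mark a cell type.

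Cardiomyocyte columns held 10.9 M to 17.2 M counts (M, 1e6), of which 51.7% to 85.5% came from the 13 protein genes of the mitochondrial genome, and fibroblast columns held 17.3 M to 61.3 M with 16.7% to 74.2%. Neither preparation was pure by its markers. The summed level of 13 cardiomyocyte genes, including Myl2 and Actn2, was 1198 to 2801 CPM (counts per 1e6 counts after TMM scaling over the 12 columns) in cardiomyocyte and 575 to 1174 CPM in fibroblast columns. The sum of 13 fibroblast genes overlapped between preparations, at 3585 to 9231 CPM in cardiomyocyte and 1910 to 7216 CPM in fibroblast columns, and edgeR called 2 of them higher and 1 lower in cardiomyocyte columns (1 and 9 with scaling by library size alone). Macrophage genes summed to 459 to 1665 and 2348 to 7604 CPM, and mesothelial genes to 15.5 to 448 and 40.6 to 118 CPM. The 12 endothelial genes summed to 1442 to 3357 and 1440 to 3085 CPM, so both preparations also held endothelial RNA. The cardiomyocyte column of Tg+ mouse 3 stood apart, being the lowest of the 6 for 34.6% and the highest for 27.7% of the 13891 genes tested. The fibroblast column of Bag3-WT mouse 1 stood apart too. It held 61.3 M counts, 74.2% of them mitochondrial, against at most 23.3 M and 39.2% in the other 5. Its cardiomyocyte genes summed to 1174 CPM (575 to 829 in the other 5) and its fibroblast genes to 1910 CPM (4364 to 7216). It was highest of the 6 for 27.4% and lowest for 19.9% of genes (27.9% and 29.9% for Tg+ mouse 3). It was lowest for 6 genes of the set. Airway and alveolar genes summed to 1204 CPM in the cardiomyocyte column of Tg+ mouse 1 and to 14.2 CPM or less in the other 5. In bulk samples such as these, fewer cells of a type and less RNA per cell cannot be told apart.

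RefSeq promoter windows (GRCm38.p6, 250 bases before to 50 bases after the annotated start) were at hand for 6 of the 10 genes, Acta2, Cnn1, Lmod1, Myl9, Rgs5 and Smtn. The 250 bases before the start were searched on both strands for the CArG box, which is 2 C, then 6 bases of A or T, then 2 G, and for a relaxed form that allows 1 G or C among the middle 6. The exact form was found in 1.41% of 13583 genes with a window and in 1 of the 6 (Myl9). The relaxed form was found in 9.3% of them and in 2 of the 6 (Acta2 and Myl9). The windows of Cnn1, Lmod1, Rgs5 and Smtn held neither form. The RefSeq start can differ from that of GENCODE M21, which gave the gene positions below. The Acta2 stretch shown lies inside the GENCODE span of its gene (34241090 to 34255590). Part of the Smtn window (3539293 to 3539392) likewise lies inside its span (3517523 to 3540612). Windows at the GENCODE starts were not searched. The stretches around the boxes of both genes are shown because Acta2 and Myl9 took different courses between mice in the values that follow. Capitals mark the boxes, which begin 84 and 34 bases before the start of Acta2 and 161 and 99 bases before that of Myl9, where the first is the exact form.
Acta2, chr19:34255374-34255482, minus strand: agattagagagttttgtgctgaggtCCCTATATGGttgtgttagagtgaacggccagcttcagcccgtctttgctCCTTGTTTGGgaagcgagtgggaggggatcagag
Myl9, chr2:156775278-156775399, plus strand: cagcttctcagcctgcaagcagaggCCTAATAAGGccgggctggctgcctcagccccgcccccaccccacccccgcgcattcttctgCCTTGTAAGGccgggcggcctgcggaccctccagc

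All but 1 of the 10 genes were higher in the cardiomyocyte than in the fibroblast preparations of the same mice. With edgeR's quasi-likelihood test and Benjamini-Hochberg adjustment over all genes tested, 9 of 10 passed adjusted p < 0.05 as higher and 0 as lower, beside 19.7% of all 13891 genes called higher and 24.9% called lower. The median log2 difference was 2.92 over the 10 genes and −0.04 over all genes. For Acta2, Actg2, Tagln and Lmod1, every cardiomyocyte column lay above every fibroblast column, which held for 9.71% of all genes. The count was 9 with each mouse left out in turn. Scaled by library size alone, which moved the median of all genes to −0.95, 7 of the 10 were called higher and Smtn lower, beside 457 higher and 6616 lower of all genes (2734 and 3456 with TMM), so differences are given relative to the TMM scaling. Genes of other cells moved in the same comparison: all 13 cardiomyocyte genes and 6 of 7 mesothelial genes were called higher, all 13 macrophage genes lower (7, 6 and 13 by library size alone). Of 12 endothelial genes, 0 were called higher and 2 lower (0 and 5 by library size alone). The part of these differences in the results below was not tested.

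**Figure D1:**
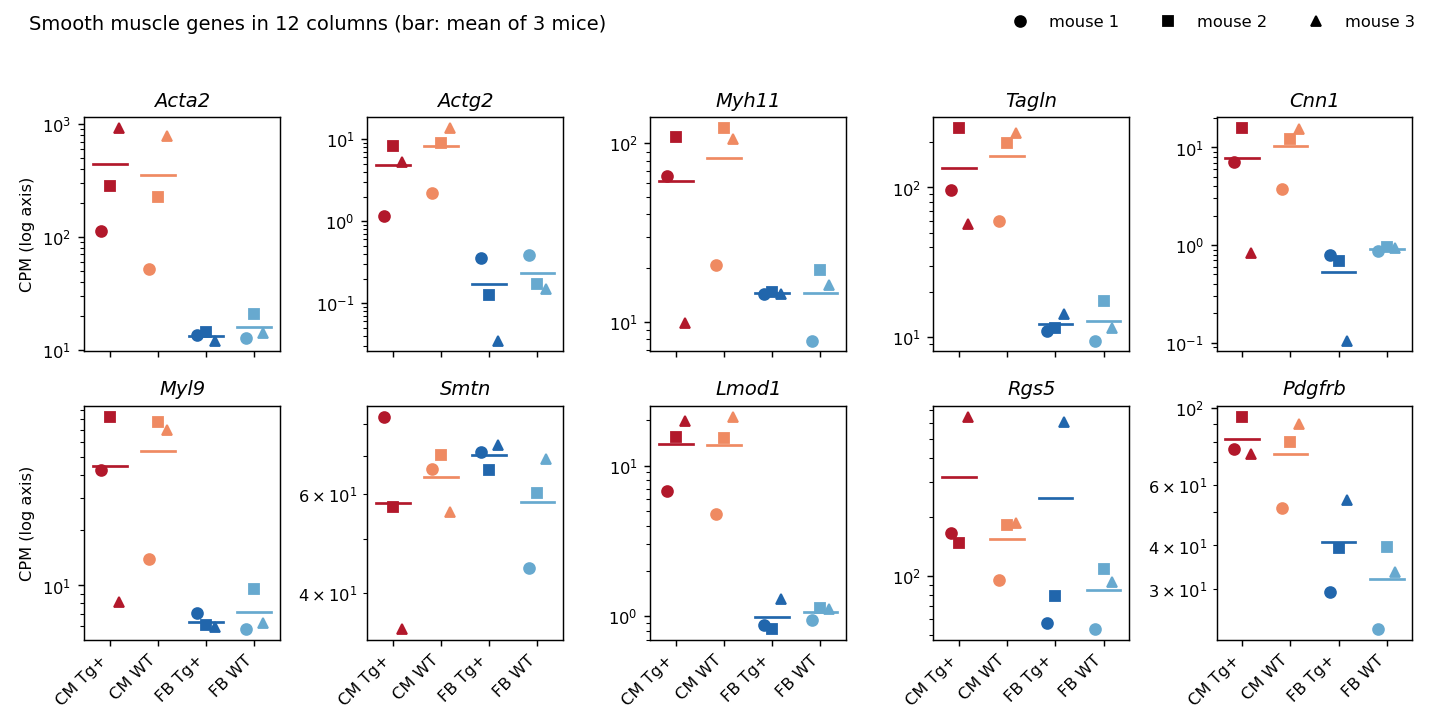
Level of each gene in CPM (log axis) in the cardiomyocyte (CM) and fibroblast (FB) columns of Tg+ and Bag3-WT (WT) mice, with 1 symbol per mouse and a bar at the mean of 3 mice. Acta2, Actg2, Tagln and Lmod1 have all 6 CM points above all 6 FB points, and Rgs5 of Tg+ mouse 3 (triangle) lies at 648 CPM in CM and 608 CPM in FB.

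**Figure D2:**
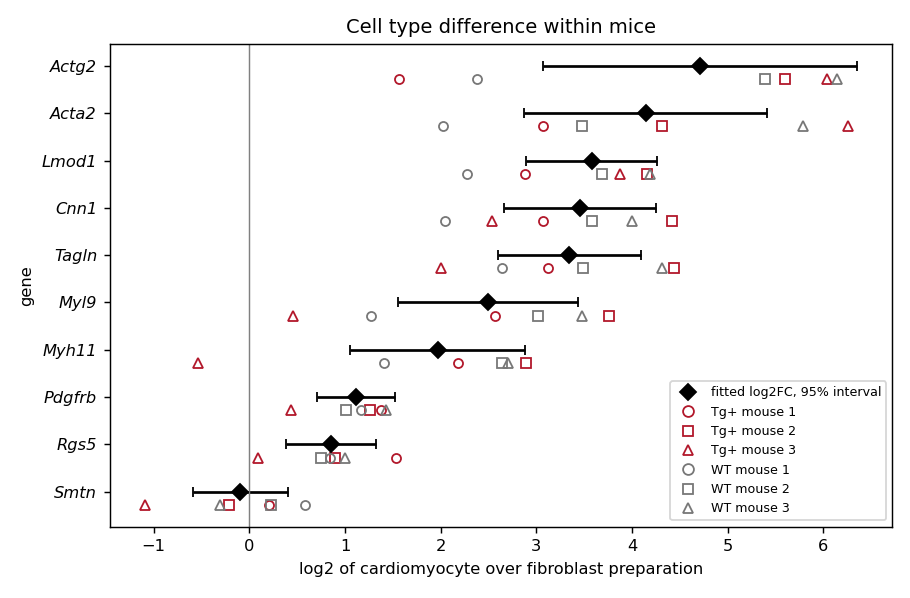
Log2 of the cardiomyocyte over the fibroblast preparation for each gene, as the edgeR estimate with its 95% interval (diamond) and as the 6 within-mouse differences (open symbols). The intervals of 9 genes lie above 0 and that of Smtn runs from −0.59 to 0.40.

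Acta2 encodes smooth muscle alpha-actin and lies at chromosome 19, positions 34241090 to 34255590, on the minus strand (GRCm38, GENCODE M21). Its level was 114, 284 and 923 CPM in the cardiomyocyte columns of Tg+ mice 1, 2 and 3 and 51.4, 228 and 780 CPM in those of Bag3-WT mice 1, 2 and 3. In fibroblast columns it was 13.5, 14.3 and 12.0 CPM in Tg+ and 12.6, 20.5 and 14.1 CPM in Bag3-WT mice. The cardiomyocyte columns thus spread 18.0-fold between mice while the fibroblast columns stayed within 1.71-fold, and the preparations did not overlap. The fitted log2 difference was 4.14 (SE 0.57, edgeR adjusted p = 2.84e-04), higher in 6 of 6 mice, and 3.71 (edgeR adjusted p = 7.66e-04) without Tg+ mouse 3.

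Actg2 encodes the enteric form of smooth muscle actin (chromosome 6, 83512905 to 83536265, minus strand). Its level was 1.15, 8.26 and 5.22 CPM in the cardiomyocyte columns of Tg+ mice 1, 2 and 3 and 2.23, 9.00 and 13.7 CPM in Bag3-WT mice. Fibroblast columns were close to the limit of detection, with 1 to 14 counts each, or 0.035 to 0.390 CPM. The groups did not overlap, and the log2 difference was 4.71 (SE 0.74, edgeR adjusted p = 5.29e-04), higher in 6 of 6 mice. Of the 31-base words in its annotated transcripts, 1.21% also occurred in other genes, and 1.39% of those of Acta2.

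Lmod1 encodes leiomodin 1, which nucleates actin filaments in smooth muscle (chromosome 1, 135324807 to 135368065, plus strand). It was at 6.75, 15.4 and 19.6 CPM in cardiomyocyte columns of Tg+ mice 1, 2 and 3 and 4.75, 15.2 and 21.0 CPM in Bag3-WT mice, against 0.82 to 1.29 CPM in all 6 fibroblast columns. Mouse 1 of each genotype was lowest, and the preparations did not overlap. The log2 difference of 3.58 (SE 0.31, edgeR adjusted p = 9.02e-06) was seen in 6 of 6 mice.

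Myh11 encodes the heavy chain of smooth muscle myosin and is the gene of the set most closely tied to mature smooth muscle (chromosome 16, 14194535 to 14291372, minus strand). Its level was 65.6, 109 and 9.89 CPM in the cardiomyocyte columns of Tg+ mice 1, 2 and 3 and 20.9, 122 and 106 CPM in those of Bag3-WT mice 1, 2 and 3. Fibroblast columns held 14.4, 14.6 and 14.4 CPM in Tg+ and 7.86, 19.5 and 16.1 CPM in Bag3-WT mice. The preparations overlapped because the cardiomyocyte column of Tg+ mouse 3 lay within the fibroblast range, while the other 5 lay above it. The log2 difference was 1.97 (SE 0.41, edgeR adjusted p = 0.00318), higher in 5 of 6 mice, and 2.38 (edgeR adjusted p = 2.03e-05) without Tg+ mouse 3.

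Myl9, the regulatory light chain that is phosphorylated to start contraction (chromosome 2, 156775420 to 156781658, plus strand), kept close to Myh11. It was at 42.4, 82.7 and 8.11 CPM in cardiomyocyte columns of Tg+ mice and 14.0, 77.95 and 69.8 CPM in Bag3-WT mice, in the order 1, 2, 3, and at 5.77 to 9.59 CPM in fibroblast columns. The column of Tg+ mouse 3 was again lowest and inside the fibroblast range. The log2 difference was 2.49 (SE 0.43, edgeR adjusted p = 9.52e-04), higher in 6 of 6 mice.

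Cnn1 encodes calponin 1, which restrains myosin on the actin filament (chromosome 9, 22099216 to 22109630, plus strand). Cardiomyocyte columns held 7.03, 15.8 and 0.825 CPM in Tg+ mice 1, 2 and 3 and 3.71, 12.1 and 15.5 CPM in Bag3-WT mice. The column of Tg+ mouse 3 rested on 6 counts and lay inside the fibroblast range of 0.105 to 0.965 CPM. The log2 difference was 3.46 (SE 0.36, edgeR adjusted p = 3.16e-05), higher in 6 of 6 mice.

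Tagln encodes transgelin, or SM22 alpha, an actin-bundling protein of smooth muscle and activated fibroblasts (chromosome 9, 45929619 to 45936058, minus strand). Its level was 95.8, 250 and 57.5 CPM in cardiomyocyte columns of Tg+ mice 1, 2 and 3 and 59.5, 197 and 231 CPM in Bag3-WT mice, and 9.48 to 17.6 CPM in fibroblast columns. Tg+ mouse 3 and Bag3-WT mouse 1 were lowest, and the preparations did not overlap. The log2 difference was 3.34 (SE 0.34, edgeR adjusted p = 2.64e-05), higher in 6 of 6 mice. Tagln was the member with the most ambiguous sequence: 53.0% of the 31-base words of its transcripts also occur in another gene model, 48.1% in Gm48529 and 4.89% in Pcsk7, and its value was not a whole number in 17 of 18 libraries.

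Smtn encodes smoothelin, an actin-binding protein of contractile smooth muscle (chromosome 11, 3517523 to 3540612, minus strand), and it did not follow the other genes. It was at 82.2, 56.9 and 34.5 CPM in cardiomyocyte columns of Tg+ mice 1, 2 and 3 and 66.5, 70.2 and 55.8 CPM in Bag3-WT mice. Fibroblast columns held 71.3, 66.1 and 73.4 CPM in Tg+ and 44.4, 60.2 and 69.2 CPM in Bag3-WT mice. Ranges overlapped almost fully, and the log2 difference was −0.10 (SE 0.23, 95% interval −0.59 to 0.40, edgeR adjusted p = 0.754), higher in 3 of 6 mice. Per count of Myh11, fibroblast columns had 3.08 to 5.65 counts of Smtn and cardiomyocyte columns 0.522 to 3.49. Another gene model, Gm11946, shares 12.8% of its 31-base words.

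Rgs5, the regulator of G protein signalling that marks pericytes (chromosome 1, 169655501 to 169695813, plus strand), was at 166, 147 and 648 CPM in the cardiomyocyte columns of Tg+ mice 1, 2 and 3 and 95.6, 182 and 185 CPM in those of Bag3-WT mice 1, 2 and 3. Fibroblast columns held 57.1, 79.1 and 608 CPM in Tg+ and 53.3, 108 and 92.6 CPM in Bag3-WT mice. Tg+ mouse 3 was far above the other 5 mice in both preparations. Within mice the log2 difference was 0.85 (SE 0.21, edgeR adjusted p = 0.00781), higher in 6 of 6 mice and least in Tg+ mouse 3 at 0.09. Without that mouse it was 1.00 (edgeR adjusted p = 0.00107), and with scaling by library size alone it was −0.07 (edgeR adjusted p = 0.905).

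Pdgfrb, the receptor by which endothelial cells recruit pericytes, varied least among the 9 genes called higher, 1.83-fold between the lowest and highest cardiomyocyte column. Its level was 76.0, 94.3 and 73.5 CPM in cardiomyocyte columns of Tg+ mice 1, 2 and 3 and 51.5, 79.7 and 90.0 CPM in Bag3-WT mice. Fibroblast columns held 29.3, 39.5 and 54.3 CPM in Tg+ and 22.9, 39.7 and 33.5 CPM in Bag3-WT mice, so that only Bag3-WT mouse 1 of the first group overlapped with only Tg+ mouse 3 of the second. The log2 difference was 1.12 (SE 0.19, edgeR adjusted p = 7.61e-04), higher in 6 of 6 mice, and it was 0.21 (edgeR adjusted p = 0.669) with scaling by library size alone. With the 3 Tg+ mice alone, 5 of the 10 genes were called, beside 385 higher and 1243 lower of 13402 genes. With the 3 Bag3-WT mice alone 9 were called, beside 1429 higher and 2348 lower of 12834.

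Levels of different genes were compared per kilobase of annotated exon (mean ± SD over 6 mice). In cardiomyocyte columns Acta2 came first at 181 ± 166 CPM per kb, followed by Tagln at 74.6 ± 44.0, Rgs5 at 52.2 ± 44.8 and Myl9 at 42.3 ± 28.2. Pdgfrb at 14.2 ± 2.75, Smtn at 13.9 ± 3.70 and Myh11 at 9.50 ± 6.31 made a second tier. Actg2, Lmod1 and Cnn1 were lowest, at 4.23 ± 3.00, 3.49 ± 1.69 and 3.35 ± 2.29. Neighbours in this order differed by less than their spread except at the step from Myl9 to Pdgfrb, which was about as large as the SD of Myl9. Fibroblast columns had another order, with Rgs5 first at 36.6 ± 47.9 CPM per kb and Smtn second at 14.6 ± 2.44. Pdgfrb, Acta2, Tagln and Myl9 followed between 6.67 and 5.84, within 1 SD of each other, and the steps before and after them were larger than the SDs. They were followed by Myh11 at 1.91 ± 0.50 and by Cnn1, Lmod1 and Actg2 at 0.265, 0.261 and 0.131. The mean of Rgs5 rested on Tg+ mouse 3. Without that mouse it was 34.1 ± 8.03 CPM per kb in cardiomyocyte columns, below Myl9 at 49.4 ± 24.8, and 17.2 ± 5.11 in fibroblast columns, within its SD of Smtn at 14.2 ± 2.47.

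The contractile genes did not order the 6 cardiomyocyte columns in the same way. Myh11 and Myl9 kept a near-constant ratio: there were 0.640 to 0.819 counts of Myl9 per count of Myh11 in all 6 columns. Acta2 did not keep step with them. Per count of Myh11 there were 1.73, 2.61 and 93.3 counts of Acta2 in Tg+ mice 1, 2 and 3 and 2.45, 1.87 and 7.37 in Bag3-WT mice 1, 2 and 3, against 0.835 to 1.61 in the 6 fibroblast columns. Tg+ mouse 3 therefore had the highest Acta2 and the lowest Myh11, Myl9, Cnn1, Tagln and Smtn of the 6 columns. Extreme values were common in that column, which lay above the other 5 mice for 27.7% and below them for 31.6% of all 13891 genes tested. The ratio of 93.3 rested on 72 counts of Myh11. Actg2, Lmod1 and Pdgfrb of that column lay within the range of the other 5 mice.

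**Figure D3:**
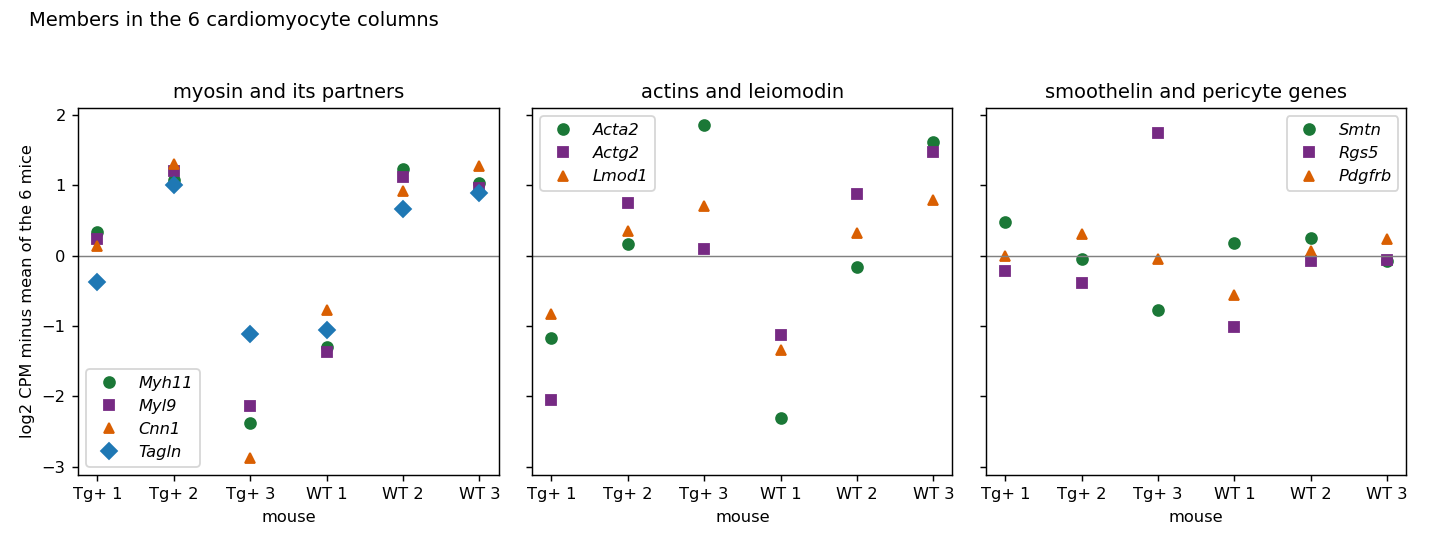
Log2 CPM of each gene minus its mean over the 6 mice, in the 6 cardiomyocyte columns, 1 symbol per gene. In Tg+ mouse 3, Myh11, Myl9, Cnn1 and Tagln lie at −2.38, −2.14, −2.88 and −1.12, while Acta2 lies at 1.86 and Rgs5 at 1.75.

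Both repeats of that mouse had high Acta2 and low Myh11. Its rep1 held 962 counts of Acta2 and 10.2 of Myh11, and its rep2 held 5752 and 62.2. Across all mice, Acta2 differed between rep1 and rep2 by a median of 0.095 on the log2 scale (highest 0.434) and Myh11 by 0.08 (highest 0.278), far less than the spread between mice. In Tg+ mouse 3 the repeats also lay close for Myl9 (0.184) and Smtn (0.017). They lay further apart for Actg2 (2.65), Cnn1 (1.22) and Tagln (0.682). Its rep1 held 0 counts of Actg2, so the Actg2 level of that column rested on rep2. The sources used here do not say whether rep1 and rep2 are separate libraries or repeat sequencing of the same library.

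Acta2 was highest in the cardiomyocyte columns of Tg+ mouse 3 and Bag3-WT mouse 3, and its relatives were divided between high and low there. Of 19 paralogues of the members, 8 had their 2 highest values in these columns and 5 their 2 lowest, beside 17.4% and 19.1% of all genes. Acta1, the skeletal muscle actin that is also active in fetal and stressed heart muscle, was at 10, 396 and 1220 CPM in the cardiomyocyte columns of Tg+ mice 1, 2 and 3 and 39.4, 203 and 945 CPM in Bag3-WT mice. Myh9, the heavy chain of non-muscle myosin, was at 465.7, 497 and 1681 CPM and at 593, 478 and 1300 CPM in the same order. Cnn2, the calponin of non-muscle cells, was at 79.7, 137 and 490 CPM and at 134, 87.7 and 370 CPM. Actg1, a cytoplasmic actin, went the other way at 743, 561 and 363 CPM and at 1039, 593.5 and 552 CPM, and Tagln2, the transgelin of other cells, was at 49.5 and 91.7 CPM in the columns of both mice 3 against 136 to 174 CPM in the other 4. The same columns were highest for genes picked after their values were seen: Actn1, a crosslinker of actin filaments, at 851 and 658 CPM against 104 to 215 CPM in the other 4, and Ctgf, a matrix protein induced in activated fibroblasts, at 1455 and 1393 CPM against 114 to 184 CPM. Over the 21 myofibroblast genes, 6 had their 2 highest and 6 their 2 lowest values in these columns, the latter including Postn, at 16.1 and 23.8 CPM against 30.3 to 50.5 CPM. Mesothelial genes summed to 15.5 CPM in Tg+ mouse 3 and 164 CPM in Bag3-WT mouse 3, against 266 to 448 CPM in the other 4, with Upk1b and Krt19 at 0 counts in Tg+ mouse 3. Their part in the difference between Acta2 and Myh11 was not tested.

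Rgs5 was the only gene of the set above the other 5 mice in both preparations of 1 animal, Tg+ mouse 3. The size of its rise set it apart in the fibroblast column only. In the cardiomyocyte column Acta2 rose about as much, to 4.05-fold over the median of the others beside 3.91-fold for Rgs5. In the fibroblast column of that mouse, 4 of the 10 genes lay above the other 5 mice and 3 below. The shares of all genes tested were 27.9% and 29.8%. Those above were Rgs5 at 7.69-fold over the median of the others, Pdgfrb at 1.62-fold, Lmod1 at 1.37-fold and Smtn at 1.11-fold. There were 8.81 counts of Rgs5 per count of Pdgfrb in the cardiomyocyte column and 11.2 in the fibroblast column of Tg+ mouse 3, against 1.56 to 2.77 in the other 10 columns. In its fibroblast column, 11 of the 17 other pericyte genes lay above the range of the other 5 mice and 2 below it, beside 27.9% and 29.8% of all genes tested. Abcc9, a subunit of a potassium channel of pericytes, was at 64.1 CPM there against 17.3 to 30.0 CPM, and Higd1b at 6.16 against 1.14 to 1.87 CPM. Their ratios to the median of the other mice, 2.41-fold and 3.56-fold, were below the 7.69-fold of Rgs5. In its cardiomyocyte column 1 of the 17 (Cspg4, 35.1 against 11.7 to 27.6 CPM) lay above the range and 5 lay below it, beside 27.7% and 31.6% of all genes, while Rgs5 was 3.91-fold over the median of the others. Genes of other cells also stood apart in the fibroblast column of this mouse: 5 of 12 endothelial genes lay above the range of the others, among them Fabp4 at 921 against 141 to 374 CPM and Cdh5 at 380.5 against 125 to 258 CPM, and all 13 macrophage genes lay below it, with a sum of 2348 against 4183 to 7604 CPM. Their part in the levels of Rgs5 was not tested.

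**Figure D4:**
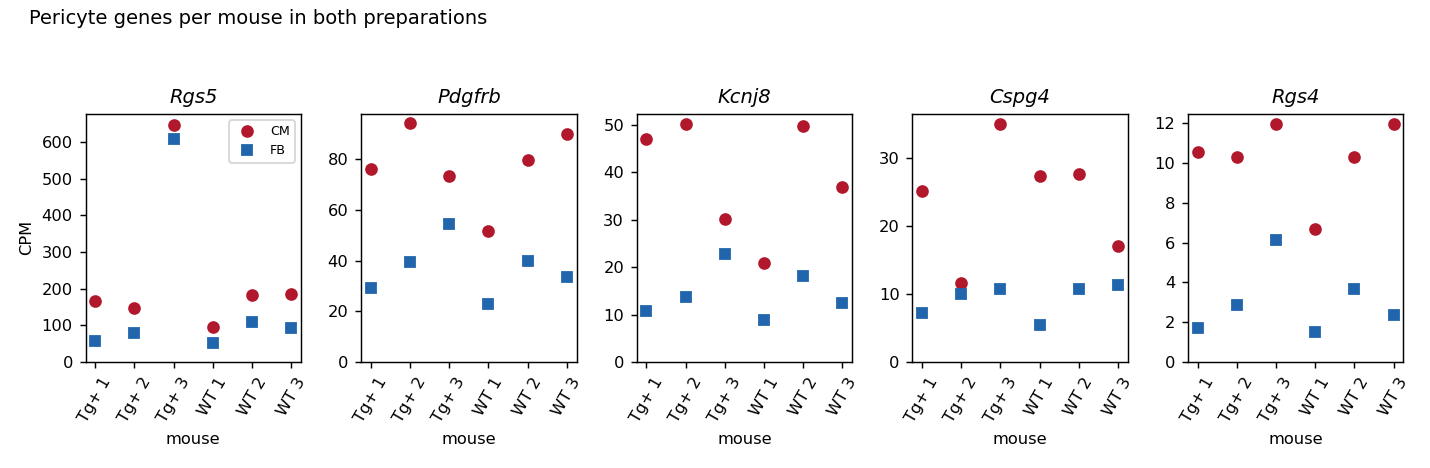
Level in CPM of Rgs5, Pdgfrb and 3 other pericyte genes in the cardiomyocyte (CM, circles) and fibroblast (FB, squares) columns of each mouse. Rgs5 of Tg+ mouse 3 reaches 648 and 608 CPM in CM and FB. Kcnj8 of that mouse reaches 30.1 CPM in CM, within the range of the other CM columns. In FB it reaches 22.7 CPM, above the 8.89 to 18.2 CPM of the other FB columns.

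The genotype comparison asked whether the P209L transgene goes with a change of these genes in either preparation. With 3 against 3 mice, edgeR's quasi-likelihood test called 0 of the 10 genes in cardiomyocyte columns, where it called 0% of all 12439 genes tested. It called 0 of 9 in fibroblast columns, where it called 0% of 13571 genes and where Actg2 had too few counts to be tested. The difference of the genotype effect between preparations was called for 0 of 10, beside 0% of 13891. At an unadjusted p under 0.05, there were 0 of the set in each comparison and 89, 690 and 124 of all genes. DESeq2 called 3, 6 and 1 genes, and 0 of the set.

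Rgs5 had the largest estimated genotype difference, with a log2 value of 1.04 (SE 0.62, 95% interval −0.38 to 2.46, edgeR adjusted p = 1) in cardiomyocyte and 1.57 (SE 0.87, 95% interval −0.45 to 3.58, edgeR adjusted p = 0.768) in fibroblast columns. Both estimates rested on Tg+ mouse 3, and without it they were 0.03 and −0.29 (edgeR adjusted p = 0.999 and 0.926). Acta2 in cardiomyocyte columns had an estimate of 0.31 (95% interval −1.94 to 2.57), which was −0.81 without Tg+ mouse 3 and 1.63 without Bag3-WT mouse 3. Myh11 had −0.42 (95% interval −2.36 to 1.53) and 0.08 without Tg+ mouse 3. Over the other genes of the set the estimates in cardiomyocyte columns ran from −0.78 (Actg2) to 0.14 (Pdgfrb), and the narrowest interval was that of Pdgfrb, −0.61 to 0.89.

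In fibroblast columns the intervals were narrower than in cardiomyocyte columns for 8 of the 9 genes tested in both, and wider for Rgs5. Acta2 differed by −0.24 (95% interval −0.74 to 0.27), Myh11 by 0.00 (−0.73 to 0.74), Tagln by −0.06 (−0.66 to 0.54) and Myl9 by −0.17 (−0.72 to 0.39). Smtn differed by 0.29 (−0.20 to 0.77), Lmod1 by −0.08 (−0.87 to 0.71) and Pdgfrb by 0.37 (−0.31 to 1.05). Cnn1 was the sole gene of the set whose genotypes did not overlap, lower in Tg+ mice at 0.797, 0.694 and 0.105 CPM against 0.864, 0.965 and 0.927 CPM. Its log2 difference of −0.76 (SE 0.61, edgeR adjusted p = 0.797) rested on 3 to 34 counts a column and was −0.27 without Tg+ mouse 3 and −1.16 without Tg+ mouse 1, and 13.1% of all genes tested did not overlap in fibroblast columns. In cardiomyocyte columns 0 of 10 did not overlap, beside 4.86% of all genes.

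**Figure D5:**
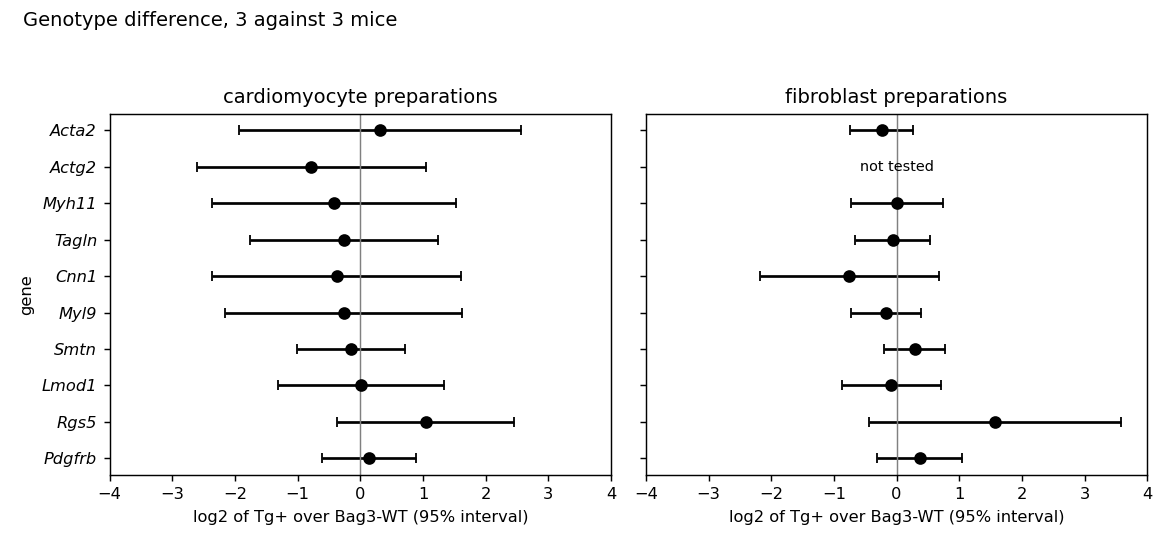
Log2 of Tg+ over Bag3-WT with its 95% interval from edgeR for each gene, in cardiomyocyte (left) and fibroblast (right) preparations, 3 against 3 mice. Every interval drawn includes 0, and Actg2 was not tested in fibroblast columns.

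Other genes of smooth muscle contraction and its regulation were also called higher or not called. Of 33 tested, 16 were higher in cardiomyocyte columns and 0 lower, with a median log2 difference of 0.80 (6 higher and 4 lower with scaling by library size alone). The counts of this list and the next ones stand beside 19.7% of all 13891 genes called higher and 24.9% called lower. By library size alone, 457 of all genes were called higher and 6616 lower. The lowest p-values were those of the tropomyosins Tpm2 (4.25, SE 0.47, edgeR adjusted p = 5.64e-05) and Tpm1 (2.14, SE 0.27), of Pln, which restrains the calcium pump (1.93, SE 0.26), and of the intermediate filament gene Des (1.60, SE 0.24). Cardiomyocytes express Tpm1, Pln and Des as well. Mylk, the kinase that phosphorylates the myosin light chain, did not pass, at 0.51 (SE 0.27, edgeR adjusted p = 0.149), and was chosen for its role after its value was seen.

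Among 25 regulators of the smooth muscle programme, 8 were higher and 5 lower, beside 19.7% and 24.9% of all genes. Their median was −0.01 (1 higher and 13 lower by library size alone). Prrx1, a homeobox factor of mesenchyme, was higher by 2.57 (SE 0.30). Foxf1 (−2.44, SE 0.37), the Krüppel-like factor Klf4, which represses contractile genes (−1.50, SE 0.24), and the Notch ligand Jag1 (−1.78, SE 0.30) were lower, and edgeR adjusted p for these 4 genes ran from 6.3e-05 to 7.79e-04. Outside the naming rule, Myocd, which encodes myocardin, was higher by 1.85 (SE 0.44, edgeR adjusted p = 0.00601) at 0.783 to 3.56 against 0.397 to 0.948 CPM, while its partner Srf was at 0.34 (SE 0.29, edgeR adjusted p = 0.361).

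Pericyte genes outside the set were higher for 7 of 17 and lower for 0, with a median of 0.66 (1 and 3 by library size alone), led by Rgs4 (1.89, SE 0.27), Kcnj8 (1.45, SE 0.23), Cspg4 (1.34, SE 0.28) and Higd1b (1.31, SE 0.34). Myofibroblast genes were higher for 11 of 21 and lower for 0, with a median of 1.14 (7 and 5 by library size alone), led by Ncam1 (2.31, SE 0.40), Fn1 (1.88, SE 0.36), Cdh11 (3.76, SE 0.71) and the collagen Col1a1 (2.52, SE 0.57). None of the genes of these 4 lists was called by genotype in either preparation or in the difference between them, where 0 of all genes were called.

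Paralogues of the members differed in direction in the cell type comparison, with 9 of 19 higher and 4 lower (7 and 6 by library size alone, with no called gene turning its sign). The striated muscle actins Acta1 (5.68, SE 1.08) and Actc1 (2.09, SE 0.29) were higher, the cytoplasmic Actg1 was lower (−0.95, SE 0.23, edgeR adjusted p = 0.00645), and Actb was at 0.01 (SE 0.24). Cnn2 was higher by 1.94 (SE 0.40) and Tagln2 lower by 0.89 (−0.89, SE 0.25). Rgs4 was higher and Rgs16 (−2.79, SE 0.54) and Rgs2 (−1.30, SE 0.27) were lower. The myosin heavy chains Myh14 (2.66, SE 0.37) and Myh10 (0.92, SE 0.30) were higher, and Myh9 was at 0.60 (SE 0.30, edgeR adjusted p = 0.123).

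The genes whose pattern was most like the mean standardised log2 level of the set over the 12 columns were Adcy5 (Pearson r = 0.965), Aplnr (0.958), Gstt3 (0.953), Kcnj8 (0.947) and Fam198b (0.943), among genes with a mean of at least 5 CPM. These points share the step between preparations. Within the 6 cardiomyocyte columns they were Fbxl17, Gpaa1, Tifab, Rassf5 and Trim2 (0.963 to 0.978). Within the 6 fibroblast columns they were Laptm4b, Bfar, Crls1, Riok2 and Parp10 (0.962 to 0.983). The 3 lists shared no gene. With 6 columns and many genes searched, high r values can arise without a relation, and their chance level was not tested. In the cardiomyocyte columns the mean also joined genes that moved apart, such as Acta2 and Myh11.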

How the data were processed

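RNA of cardiomyocytes and cardiac fibroblasts of 6 mice was captured on oligo(dT) beads and sequenced, per the labels' protocols. The authors' first deposited table holds expected counts (estimated counts) per gene, and their second a normalized signal that served as an alternative. GRCm38.p6, kallisto 0.44.0, R 3.4.4 and DESeq2 1.18.1 appear without roles in the submitters' processing notes. Of values above 0, 56.8% were not whole numbers, as happens where reads are divided between gene models. For each mouse, rep1 and rep2 were added and rounded, which left the mouse as the replicate (3 per genotype). The repeat number was read as numbering the libraries of a mouse and was not used to pair mice. Deviations from the genotype means correlated at a mean of 0.02 (−0.39 to 0.36) between same-numbered libraries of different genotypes. Deviations of mice cancel in that mean, so it cannot show whether particular mice were paired.

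Tests used edgeR 4.0.16 in R 4.3.3 (filterByExpr, TMM scaling, robust quasi-likelihood fit, two-sided, Benjamini-Hochberg over all genes tested, adjusted p < 0.05). Cell type was fitted within mice, genotype within each preparation, and their interaction over 12 columns. The fit was also run on simulated counts, which had a fixed spread and no differences between mice. That spread was lower than in these data, where the common biological coefficient of variation was 0.284 to 0.495 over the fits. The simulation therefore cannot show how well the fit finds differences at the spread of these mice. Alternatives used DESeq2 1.42.0 and limma 3.58.1, other scalings and filters, and each mouse left out in turn. SE is the log2 difference over the root of F. CPM values are TMM-scaled over the 12 columns. Exon lengths and positions came from GENCODE M21. The members and gene lists were chosen with earlier results of these data known. Up to 4 genes per list with the lowest p were named, 2 for lists of other cell types, besides paralogues and the 5 genes most alike. The 31-base words were counted in GENCODE M21 transcripts, while the sources used here do not give the authors' index.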

Additional observations from a re-analysis of the deposited data

Results flagged for a closer look

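Among the 20 sets of 6 columns (10 genes in 2 preparations), 5 had 1 mouse far from the others by Dixon's gap-to-range ratio. The 95% level was used, where chance flags about 1 in 20 independent, normally distributed sets. Here the genes shared the same columns and CPM was not log-transformed, so the 5 flags cannot be weighed against that rate. Rgs5 of Tg+ mouse 3 stood out at 647.6 CPM in cardiomyocyte and at 608.4 CPM in fibroblast columns. Cnn1 of the same mouse was low at 0.1049 CPM in fibroblast columns, on 3 counts. The fibroblast column of Bag3-WT mouse 2 was high for Acta2 at 20.48 CPM and for Myl9 at 9.588 CPM, and it was also the highest of the 6 for Myh11, Tagln and Cnn1. That column was the highest for 10.5% of all genes tested.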

How the results depend on the processing

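The cell type calls held at 9 of 10 genes under DESeq2, limma voom, DESeq2 size factors, the deposited normalized table, no filter, mitochondrial genes left out, rep2 alone and each mouse left out. They were 8 with library size only (7 higher, Smtn lower, Rgs5 −0.066) and 5 with the Tg+ mice alone, where all calls dropped to 385 higher and 1243 lower from 2734 and 3456. Smtn ran from −0.237 to 0.090 with a mouse left out and was 0.166 with the Bag3-WT mice alone. Genotype and interaction calls stayed at 0 of the set under every alternative run, where signs are not results. By library size only, which moved the median of all genes to 0.84, 0.36 and 0.30, signs turned in cardiomyocytes for Myh11 (0.382), Tagln (0.367), Cnn1 (0.318), Myl9 (0.491) and Smtn (0.887), in fibroblasts for Acta2 (0.022), Tagln (0.160), Myl9 (0.084) and Lmod1 (0.220), and in the interaction for Actg2 (0.128), Tagln (0.058), Myl9 (0.106), Rgs5 (0.252) and Pdgfrb (0.112). With the letter of the animal code as covariate they turned in cardiomyocytes for Myh11 (0.396), Tagln (0.293), Cnn1 (0.172) and Myl9 (0.511) and in fibroblasts for Tagln (0.056). Lmod1 in cardiomyocytes was −0.009 by voom, −0.075 with rep2 alone and −0.278 with the replicate block over unsummed libraries, Myh11 in fibroblasts −0.003 with 4 groups in 1 fit, and Rgs5 in the interaction 0.035 without mitochondrial genes and 0.004 by voom. The cause of these turns was not tested.

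With each mouse left out, cardiomyocyte genotype estimates ran from −0.810 to 1.631 (Acta2), −1.111 to 0.084 (Myh11), −1.083 to 0.099 (Tagln), −1.353 to 0.129 (Cnn1), −1.070 to 0.223 (Myl9), −0.465 to 0.124 (Smtn), −0.379 to 0.456 (Lmod1) and −0.044 to 0.298 (Pdgfrb). Fibroblast estimates ran from −0.376 to 0.012 (Acta2), −0.295 to 0.286 (Myh11), −0.247 to 0.238 (Tagln), −0.308 to 0.107 (Myl9), −0.297 to 0.038 (Lmod1), −1.164 to −0.272 (Cnn1) and −0.291 to 2.037 (Rgs5). Interaction estimates ran from −0.104 to 1.773 (Acta2), −1.513 to 1.506 (Actg2), −1.406 to 0.266 (Myh11), −0.917 to 0.302 (Tagln), −0.235 to 0.737 (Cnn1), −1.068 to 0.535 (Myl9), −0.288 to 0.638 (Lmod1), −0.355 to 0.352 (Rgs5) and −0.335 to 0.117 (Pdgfrb). Depth limits Actg2 and Cnn1 in fibroblast columns, with 1 to 14 and 3 to 34 counts. The levels per kb without Tg+ mouse 3 were added after seeing the data.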
